A study of Mus musculus with 6 samples.

Results

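The metabotropic glutamate receptor genes Grm2, Grm3, Grm4, Grm5, Grm7 and Grm8 and their scaffold genes Homer1 and Homer2 were followed by mRNA-seq in the hippocampus of aging and young mice. They were picked by gene name and not by a measured value, although earlier results of these data were known. They make up 8 of the 13321 genes and 20 of the 25409 transcripts in the table. The libraries came from male WT mice of the C57 BL/6 strain, at 22 months (22M, labelled aged, libraries 72, 76 and 78) and at 3 months (3M, labelled young, libraries J11, J13 and J15), and neither age received a drug. Polyadenylated RNA was made into strand-specific libraries, and each transcript has an FPKM value per library, which counts its fragments relative to its length and to all mapped fragments. The labels do not state that each library is a separate mouse, so the p-values below measure the spread between these libraries, and the depth of the libraries is unknown.

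Metabotropic glutamate receptors are G protein-coupled receptors that tune synaptic transmission rather than carry it. Group I, here Grm5, couples to phospholipase C and calcium release at the postsynaptic membrane, whereas group II (Grm2 and Grm3) and group III (Grm4, Grm7 and Grm8) lower adenylyl cyclase activity and largely act on transmitter release. Homer proteins bind the tail of the group I receptors and tie them to Shank and to the IP3 receptor, and the short Homer1a form, induced by neuronal activity, lacks the coiled coil through which long forms join each other.

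The forms that the results turn on were placed on GRCm38 with the GENCODE vM21 annotation. Grm5 lies on the plus strand at chr7:87584393-88134907. Grm5-204 (1203 codons) holds a cassette exon of 96 bases at chr7:88116193-88116288 that Grm5-201 and Grm5-202 (1171 codons each) lack, and which makes the mGluR5b form. The exon is shown in capitals between 15 bases of each neighbouring exon, since its share of Grm5 is reported below.
Grm5-204 cassette exon: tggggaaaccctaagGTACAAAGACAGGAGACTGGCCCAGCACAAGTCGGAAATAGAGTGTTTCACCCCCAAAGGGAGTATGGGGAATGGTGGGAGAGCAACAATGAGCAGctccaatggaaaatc

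Homer1 lies on the plus strand at chr13:93303757-93405129. All forms in the table hold the exon whose shared part ends at position 93356079, and the next lines show why they are counted apart. Each gives the last 18 shared coding bases in lower case (from chr13:93356062) and, joined across introns, the bases of that form in capitals, up to 60 of them or to the stop codon.
Homer1-202: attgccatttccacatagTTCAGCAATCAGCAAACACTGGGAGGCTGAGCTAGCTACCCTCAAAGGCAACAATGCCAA
Homer1-203: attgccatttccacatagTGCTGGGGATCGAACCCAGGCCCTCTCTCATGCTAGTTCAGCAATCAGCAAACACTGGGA
Homer1-204: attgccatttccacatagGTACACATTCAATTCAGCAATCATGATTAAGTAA
Homer1-205: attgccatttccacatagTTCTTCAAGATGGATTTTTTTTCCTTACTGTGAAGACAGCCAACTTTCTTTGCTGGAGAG
Homer1-206: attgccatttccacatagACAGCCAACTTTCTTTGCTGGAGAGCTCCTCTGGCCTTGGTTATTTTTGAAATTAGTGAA
Homer1-207: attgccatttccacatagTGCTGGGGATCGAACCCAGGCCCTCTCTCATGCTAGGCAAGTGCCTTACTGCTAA
Homer1-204 (186 codons), the Homer1a form, runs past the end of the shared exon without a splice, and the bases shown lie at chr13:93356062-93356113. Homer1-205 (203 codons) and Homer1-206 (233 codons) go on at positions 93366243 and 93366278, and Homer1-207 (193 codons) at 93386345, where Homer1-203 goes on too. Homer1-202 (370 codons) and Homer1-203 (366 codons) are the long forms with the coiled coil, and the 4 forms under 250 codons were taken as short.

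Promoter windows of 300 bases (250 before the start and 50 after it, RefSeq on GRCm38.p6) were found for 6 of the 8 genes, 11 windows in all. Of these, 1 held TGACGT, the core of the cAMP response element, searched on both strands with overlaps counted (7.51% of all 32851 windows held it). That window is the start of Homer1 at chr13:93303507-93303806 on the plus strand, shown with the matches in capitals.
Homer1 promoter: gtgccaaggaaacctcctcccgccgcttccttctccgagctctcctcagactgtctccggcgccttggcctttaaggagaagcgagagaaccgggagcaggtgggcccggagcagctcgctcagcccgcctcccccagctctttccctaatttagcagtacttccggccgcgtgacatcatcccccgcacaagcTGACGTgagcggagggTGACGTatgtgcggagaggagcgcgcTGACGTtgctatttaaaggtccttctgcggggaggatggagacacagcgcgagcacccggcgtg
It holds 3 matches, a number reached by 0.201% of all windows, and the second Homer1 window at chr13:93307784-93308083 holds 0. A match of letters is a description and not a measured binding site.

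J11 and 78 stood apart in marker genes before any comparison. The 9 striatum markers, among them Drd1, Drd2, Adora2a and Penk, summed to 1237 FPKM in J11, against 57.8 to 93.1 FPKM in the other 5 libraries, and 8 of the 9 were highest in J11. Drd2, a dopamine receptor gene, was at 41.5 FPKM in J11 and at 1.44 and 1.48 FPKM in J13 and J15. The 7 choroid plexus markers, among them Ttr and Folr1, summed to 135 FPKM in 78, against 1159 to 2822 FPKM in the other 5 libraries, and 7 of the 7 were lowest in 78. The thalamus and habenula markers differed between the ages and not in a single library. They summed to 41.1, 38.0 and 37.3 FPKM in 22M, against 67.2, 91.8 and 77.3 FPKM in 3M. Of the 10 tested, 2 (Prkcd and Ramp3) fell with age at an adjusted p under 0.05 (1.21% of all genes). At an unadjusted p under 0.05 and more than 1.5-fold, 6 were lower (4.22% of all genes) and 0 higher (4.08%). The median log2 fold change was -0.77. Of 11 in the table, 6 were separated with 22M below (21.1% of all genes tested) and 1 with 22M above (13.3%). All 10 hippocampal excitatory neuron markers were present in every library, and their sums were 905, 1032 and 905 FPKM in 22M, against 780, 821 and 1008 FPKM in 3M. Without J11 or without 78, values are given for the member genes and for the sums and list genes that moved, and the part of neighbouring tissue in any result was not tested. In bulk tissue fewer cells of a type and less RNA per cell cannot be told apart.

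**Figure D1:**
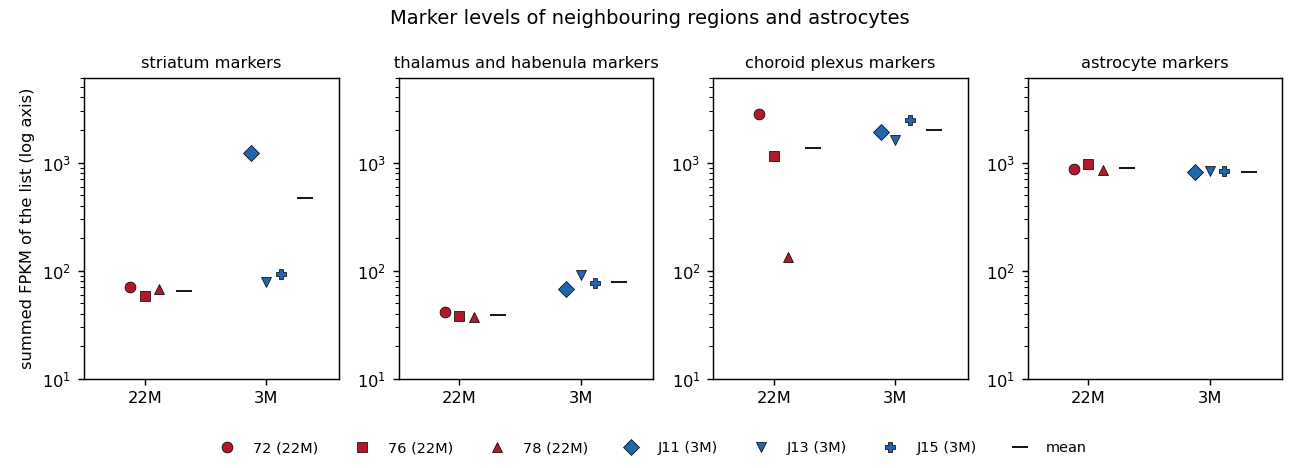
Summed FPKM (log axis) of 4 marker lists in each library, 22M left of 3M, with a dash at the mean of each age. The striatum markers reached 1237 FPKM in J11 alone, the choroid plexus markers were lowest in 78 (135 FPKM), and the 3 thalamus and habenula sums of 22M lay below those of 3M.

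Grm5 had the highest mean of the 8 genes at both ages, although in J11 Homer1 (33.9 FPKM) was above Grm5 (32.3 FPKM), and Grm5, Grm2 and Homer2 had all 3 of their 22M libraries above all 3 of their 3M libraries. No gene of the 8 passed the adjusted p of 0.05 in the limma fit over 13041 genes, in which 120 genes rose (0.92%) and 158 fell (1.21%). At an unadjusted p under 0.05 there were 3 of the 8 with higher values in 22M (10.6% of all genes) and 0 with lower ones (16.4%), and when each gene kept its own variance this was 1 of the 8, Grm5 (9.06% of all genes), with 0 of the 8 lower (14.9%). Separation of the ages in the direction of 22M was seen in 3 of the 8, beside 13.3% of all genes tested, and 0 of the 8 were separated in the other direction, beside 21.1%. The thresholds of the study, an unadjusted p under 0.05 with a change of more than 1.5-fold, are called higher or lower here, and they took in 1 of the 8 genes, Grm2, as higher (4.08% of all genes were higher and 4.22% lower). Without J11 the count was again 1 of the 8, but the gene was Grm8 (4.47% of all genes were then higher and 3.76% lower). At an unadjusted p under 0.05 it was then Grm2, Grm5 and Grm8, 3 of the 8 (9.95%), and 0 of the 8 in the other direction (12.7%). Without 78, 0 of the 8 were higher (3.66%) and 0 lower (3.86%) at the thresholds of the study. Of the members, 6 of 8 had a fold change above 0, beside 44.0% of all genes.

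**Figure D2:**
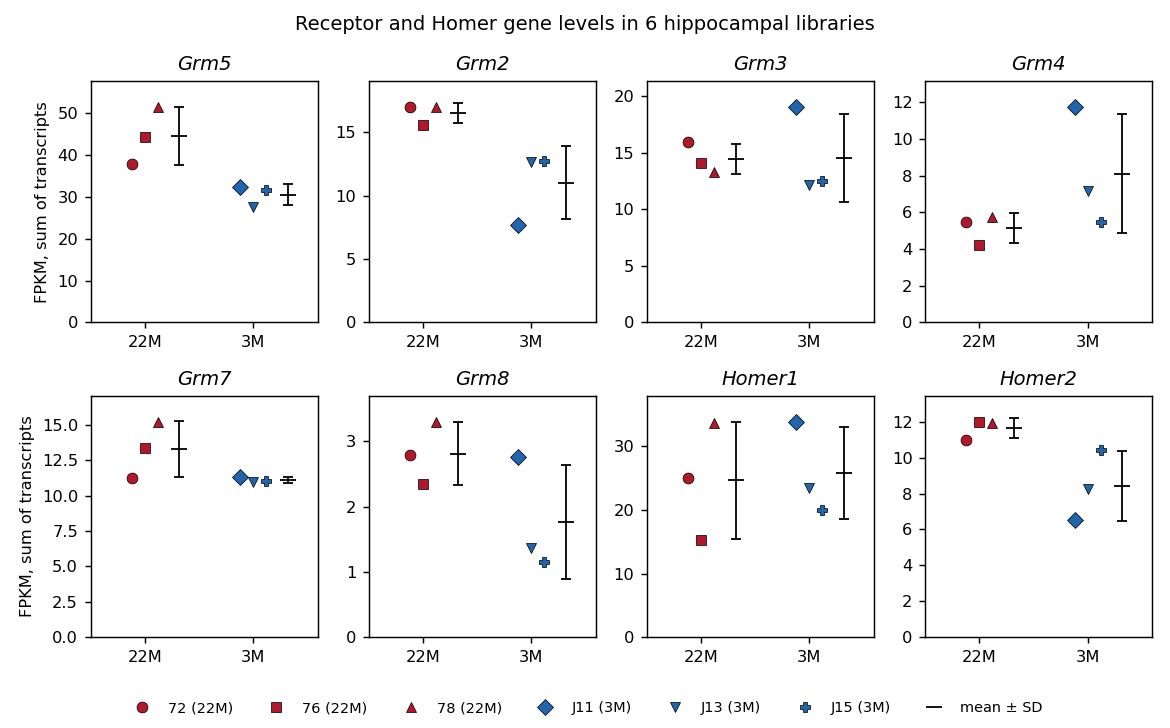
FPKM per gene, summed over its transcripts, in each library, 22M left of 3M, with bars for the mean ± SD (n = 3 each). Grm5, Grm2 and Homer2 show no overlap between the ages. J11 (diamond) is the lowest 3M library for Grm2 and Homer2 and the highest for Grm3, Grm4, Grm5, Grm7, Grm8 and Homer1.

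Among group I receptors, Grm5 was at 37.8, 44.3 and 51.5 FPKM in 22M, against 32.3, 27.6 and 31.7 FPKM in 3M. Every 22M library lay above every 3M library. Its mean was 44.5 ± 6.86 FPKM in 22M and 30.5 ± 2.56 FPKM in 3M (SD, n = 3 each), which is 0.53 on the log2 scale (SE 0.131, limma adjusted p = 0.0726). It was 0.57 without J11 (adjusted p = 0.128) and 0.42 without 78 (adjusted p = 0.173), the highest library. Over 13027 genes, longer transcripts tended to have higher fold changes (rho 0.516, a description), and Grm5 falls in the longest of 10 length bins, whose median log2 fold change was 0.31. With each library corrected for transcript length and GC content, the log2 fold change of Grm5 was 0.27 (adjusted p = 0.219).

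The transcripts of Grm5 differed among themselves. Grm5-202, the longest of them (8047 bases), was at 18.9, 21.4 and 25.6 FPKM in 22M, against 20.9, 23.0 and 20.7 FPKM in 3M. The ages overlapped in this form (log2 fold change 0.02, SE 0.132, limma adjusted p = 0.960). Grm5-201 has as many codons in a transcript of 3516 bases and was at 5.84, 7.54 and 7.77 FPKM in 22M, against 0.771, 0.160 and 2.10 FPKM in 3M. Its ages were apart (log2 fold change 2.53, SE 0.505, adjusted p = 0.124). Grm5-204, the form with the cassette exon printed above, was at 13.05, 15.4 and 18.1 FPKM in 22M, against 10.6, 4.40 and 8.92 FPKM in 3M. Again the ages did not overlap (log2 fold change 0.99, SE 0.329, adjusted p = 0.222). Without J11 the log2 fold changes were 2.52 for Grm5-201 and 1.22 for Grm5-204, and without J13, the lowest library of both forms, they were 2.04 and 0.64.

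Grm5-202 thus made up 50.03%, 48.3% and 49.7% of the summed Grm5 FPKM in 22M, against 64.9%, 83.5% and 65.2% in 3M. The share of the cassette form was 34.5%, 34.7% and 35.2% in 22M, against 32.8%, 16.0% and 28.1% in 3M. The shares of both forms were separated by age, and they were close to each other among the 22M libraries. On the log2 scale the ratio of the form with the exon to the forms without it differed by 0.64 between the ages (exact two-sided permutation p = 0.1, the smallest that 3 against 3 libraries allow). That difference was 0.91 without J11 and 0.27 without J13. How reads were divided among overlapping forms is not given in the sources used here, so values of single transcripts are less certain than sums.

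Group II receptors inhibit glutamate release and, for Grm3, are also found on astrocytes. Grm2 was at 17.0, 15.6 and 17.0 FPKM in 22M, against 7.70, 12.6 and 12.7 FPKM in 3M. The 22M libraries were alike and all above the 3M ones, of which J11 was far the lowest. The means were 16.5 ± 0.806 FPKM in 22M and 11.02 ± 2.87 FPKM in 3M (log2 fold change 0.60, SE 0.196, limma adjusted p = 0.119). Without J11 the log2 fold change was 0.37 (adjusted p = 0.126), under the fold threshold of the study, and without 78 it was 0.58 (adjusted p = 0.251). Nearly all of it was Grm2-201 (95.3% of the Grm2 FPKM in 22M and 95.9% in 3M).

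Grm3 was at 15.9, 14.1 and 13.3 FPKM in 22M, against 19.1, 12.2 and 12.5 FPKM in 3M. Its ages overlapped, with J11 as the highest library of all (log2 fold change 0.01, SE 0.185, limma adjusted p = 0.970, 0.22 without J11 and 0.07 without 78). Astrocyte markers gave no call past the adjusted p among 10 tested, and 3 of the 10 (Gfap, Slc1a2 and Aqp4) were separated with 22M above while 3 were separated with 22M below. At the thresholds of the study 0 of the 10 were higher and 1 was lower, Aldh1l1, at 7.99, 7.13 and 6.87 FPKM in 22M, against 14.2, 11.2 and 10.1 FPKM in 3M (log2 fold change -0.64, adjusted p = 0.0633). Together the group II genes summed to 32.9, 29.7 and 30.3 FPKM in 22M, against 26.8, 24.8 and 25.2 FPKM in 3M. The sums did not overlap between the ages (log2 ratio of the means 0.28), and they varied less over the 3M libraries than either gene did, J11 being low in Grm2 and high in Grm3.

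Group III receptors are mostly presynaptic autoreceptors of glutamate terminals. Grm4, better known from cerebellar and basal ganglia circuits, was at 5.45, 4.19 and 5.77 FPKM in 22M, against 11.7, 7.14 and 5.45 FPKM in 3M. The ages overlapped at J15, and J11 held the top value (log2 fold change -0.56, SE 0.273, adjusted p = 0.242). Without J11 it was -0.27 (adjusted p = 0.446) and without 78 -0.64 (adjusted p = 0.321). Grm7, a receptor found at the release site, was at 11.3, 13.4 and 15.2 FPKM in 22M, against 11.3, 10.98 and 11.01 FPKM in 3M. Its 3M libraries were nearly equal, the lowest 22M library was level with them, and the log2 fold change was 0.24 (SE 0.124, adjusted p = 0.267), or 0.25 without J11. It was 0.14 without 78, the highest library, and 0.35 without 72, the lowest of 22M.

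Grm8 was the least abundant of the 8 genes, at 2.79, 2.35 and 3.30 FPKM in 22M, against 2.76, 1.37 and 1.15 FPKM in 3M. J11 lay within the 22M range, and the other 3M libraries lay below it (log2 fold change 0.61, SE 0.280, adjusted p = 0.218). Without J11 the log2 fold change was 0.91 (SE 0.193, adjusted p = 0.110), and without 78, the highest library, it was 0.50 (adjusted p = 0.420). Grm8-203 carried this pattern, at 2.14, 1.90 and 2.74 FPKM in 22M, against 2.25 FPKM in J11 and a listed 0 in J13 and J15. Grm8-201 ran the other way, at 0.649, 0.441 and 0.553 FPKM in 22M, against 0.507, 1.37 and 1.15 FPKM in 3M. Summed over the group III genes, the values were 19.5, 19.9 and 24.3 FPKM in 22M, against 25.8, 19.5 and 17.6 FPKM in 3M, and the ages overlapped. The log2 ratio of the means was 0.20 without J11, when the ages were apart by a small margin, and -0.090 without 78.

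**Figure D3:**
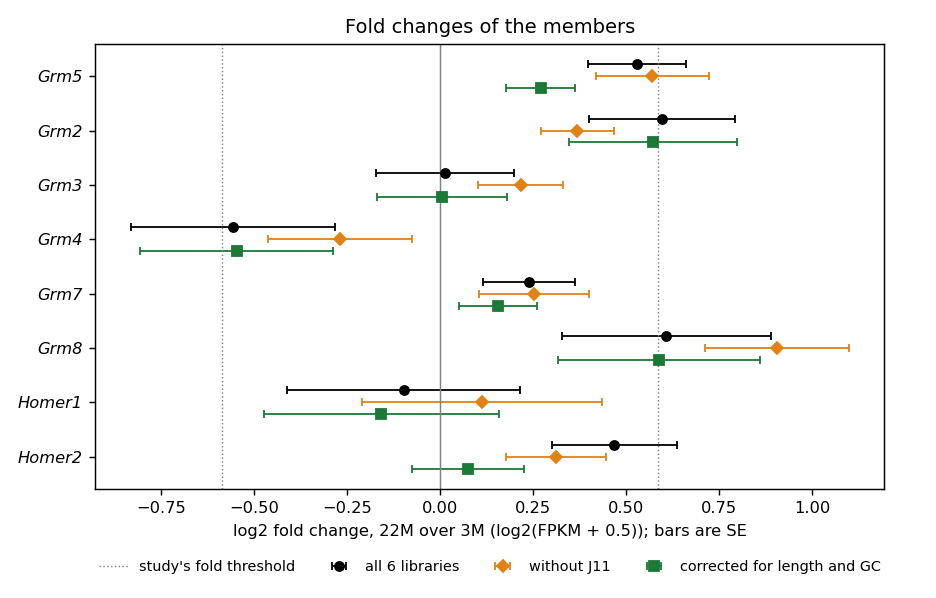
Log2 fold change of each gene, 22M over 3M, with its SE, from all 6 libraries, without J11 and after correction for transcript length and GC content. Dotted lines mark the fold threshold of the study, which Grm2 passed with all libraries (0.60) and not without J11 (0.37), and the correction moved Homer2 to 0.07.

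Homer2, a constitutive long scaffold, was at 10.99, 12 and 11.9 FPKM in 22M, against 6.54, 8.26 and 10.4 FPKM in 3M. No library of one age lay within the other, and J11 was the lowest. The means were 11.6 ± 0.566 FPKM in 22M and 8.41 ± 1.94 FPKM in 3M (log2 fold change 0.47, SE 0.168, limma adjusted p = 0.140). It was 0.31 without J11 (adjusted p = 0.245), 0.45 without 78 (adjusted p = 0.279), and 0.07 (adjusted p = 0.824) with the correction for length and GC, and Homer2 is in the longest bin too. Homer2-202 held most of it, at 9.12, 10.01 and 10.2 FPKM in 22M, against 5.29, 6.97 and 8.79 FPKM in 3M.

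Homer1 was at 25.1, 15.3 and 33.7 FPKM in 22M, against 33.9, 23.5 and 20.0 FPKM in 3M. Its libraries spread more within an age than between them (24.7 ± 9.21 FPKM in 22M and 25.8 ± 7.22 FPKM in 3M, log2 fold change -0.10, adjusted p = 0.862, 0.11 without J11 and -0.35 without 78). The spread lay in the long forms, which summed to 16.6, 4.83 and 22.4 FPKM in 22M, against 20.9, 8.32 and 8.59 FPKM in 3M. Their log2 ratio of the means was 0.79 without J11 and -0.24 without 78. The short forms summed to 8.50, 10.4 and 11.2 FPKM in 22M, against 12.96, 15.2 and 11.4 FPKM in 3M, so all 22M libraries were below all 3M libraries, by a small margin at 78 and J15 (log2 ratio of the means -0.39, a sum with no test).

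Homer1-204, the activity-induced Homer1a whose run-through end is printed above, was at 3.19, 3.84 and 4.19 FPKM in 22M, against 6.15, 7.94 and 3.93 FPKM in 3M. It was J15 alone that made the ages overlap, and the difference did not pass the test (log2 fold change -0.58, SE 0.267, limma adjusted p = 0.338, and -0.54 without J11). It was -0.36 without J13, the highest library, and -0.83 without J15. With the correction for length and GC it was -0.77 (adjusted p = 0.290), past the thresholds of the study for lower transcripts. The short forms were 33.9%, 68.3% and 33.4% of Homer1 in 22M, against 38.3%, 64.6% and 56.9% in 3M. The log2 ratio of short to long forms differed by -0.47 (exact two-sided permutation p = 0.6), and by -1.13 to -0.13 on leaving out a library. Homer1-202 was at 0.00947 FPKM in 76, against 4.87 and 5.23 FPKM in 72 and 78, and Homer1-206 was at 4.08 FPKM in 78 and 4.69 FPKM in J11 but listed at 0 in the other 4 libraries. Values of single Homer1 forms therefore shifted between libraries of the same age.

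**Figure D4:**
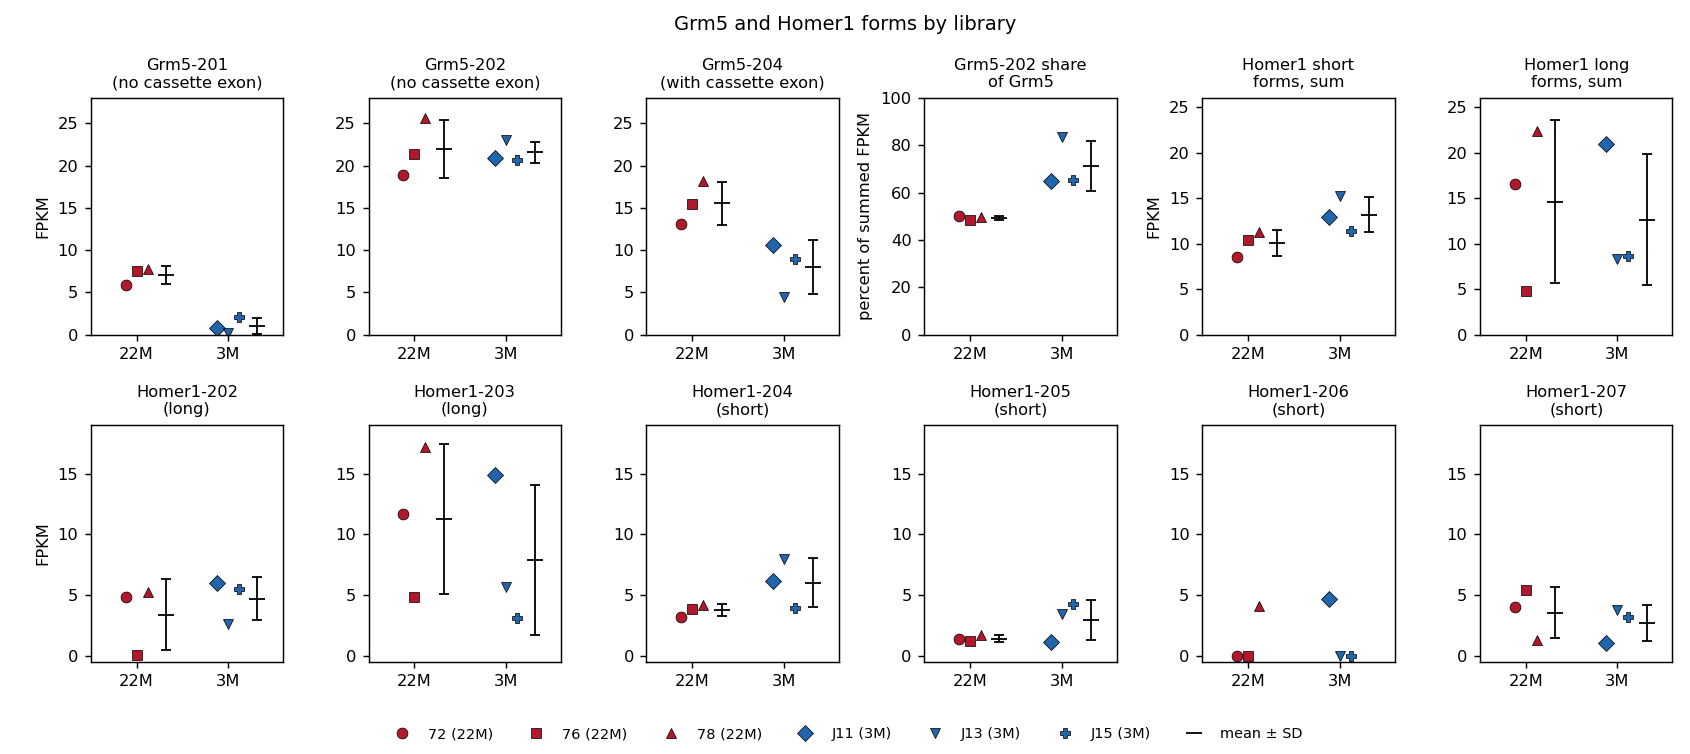
FPKM of each Grm5 and Homer1 transcript, the percent of Grm5 held by Grm5-202, and the Homer1 short and long sums, per library, 22M left of 3M, with the mean ± SD (none for Homer1-206, listed at 0 in 4 libraries). Grm5-201 and Grm5-204 are separated by age while Grm5-202 is not, and Homer1-203 ranges from 4.82 to 17.2 FPKM within 22M.

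Over all 20 transcripts, 0 passed the adjusted p (0.123% of 23637 tested rose and 0.0846% fell). At the thresholds of the study 3 of the 20 were higher, namely Grm5-201, Grm5-204 and Grm2-201 (5.03% of transcripts), and 0 were lower (4.54%). The same 3 had an unadjusted p under 0.05 with 22M above (7.38%), and 0 had it with 22M below (9.93%). By the own-variance fit 1 of the 20 was higher, Grm5-201 (3.77%), and 0 were lower (3.32%). Without J11, the higher ones were Grm5-201, Grm5-204 and Grm8-203 (5.33%), and Grm8-201 and Homer1-205 were lower (4.03%). Separation with 22M above was seen in 6 of the 20, Grm7-202, Homer2-201 and Homer2-202 being the others (11.5%), and in 0 with 22M below (14.5%).

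By level, since FPKM are scaled by length, the order in 22M was Grm5, Homer1, Grm2, Grm3, Grm7, Homer2, Grm4 and Grm8. Ranges of neighbours in that order overlapped except between Grm5 and Homer1, Homer2 and Grm4, and Grm4 and Grm8. In 3M the order was Grm5, Homer1, Grm3, Grm7, Grm2, Homer2, Grm4 and Grm8, and only Homer1 and Grm3, Grm3 and Grm7, and Grm4 and Grm8 had ranges apart. The receptor genes together summed to 90.2, 94.0 and 106 FPKM in 22M, against 84.9, 71.9 and 74.5 FPKM in 3M. These sums were separated by age, and Grm5 is their largest part.

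Across the 6 libraries, which share the age difference and J11, the log2 levels of Grm2 and Homer2 correlated with r = 0.93, those of Grm5 and Grm7 with r = 0.92, and those of Homer2 and Grm4 with r = -0.94. Of the genes averaging 5 FPKM or more, those most like each member were named by r alone. For Homer2 they were Grin2a, an NMDA receptor subunit gene (r = 0.99), and Prox1, a transcription factor of dentate granule cells (r = 0.99). Prox1 was at 18.9, 22.2 and 19.7 FPKM in 22M, against 8.91, 12.3 and 17.8 FPKM in 3M, lowest in J11 as Homer2 was. For Grm2 the nearest were Acaca and Hapln4 (r = 0.99 each), and for Grm5 Chd6 (r = 0.998). For Grm4 they were Cenpx and Nap1l1, for Grm3 Ppp6r2 and Sdc2, for Grm7 Kmt5b and Rsf1, for Grm8 Pitpnm3 and Atp2b4, and for Homer1 Ext2 and Smarcad1, the last pair with the loosest fit (r = 0.97 and 0.95). The number of genes with r above 0.95 ran from 2 for Homer1 and 6 for Grm3 to 126 for Homer2 and 247 for Grm5, of 8001 or 8002 compared with each.

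The wider pathway was read from 4 lists of 67 genes in all, of which 2 rose (0.92% of all genes) and 3 fell (1.21%). At the thresholds of the study 9 of the 67 were higher (4.08% of all genes) and 7 lower (4.22%). At an unadjusted p under 0.05 there were 13 with 22M above (10.6% of all genes) and 11 with 22M below (16.4%). Among 19 genes of scaffold partners, Shank2 and Elfn2 rose, and the median log2 fold change was 0.13, beside -0.05 over all genes. Shank2, whose protein binds Homer in the postsynaptic density, was at 22.4, 23.2 and 28.04 FPKM in 22M, against 9.15, 8.001 and 12.01 FPKM in 3M (log2 fold change 1.31, SE 0.167, limma adjusted p = 0.0364). Every 22M library exceeded the highest 3M library. Elfn2, an adhesion protein that binds group III receptors across the synapse, was at 26.2, 32.3 and 33.7 FPKM in 22M, against 19.1, 16.9 and 18.95 FPKM in 3M (0.72, SE 0.1199, adjusted p = 0.0479). The third gene higher in this list was Dlgap2, a PSD scaffold (0.87, adjusted p = 0.0565, and 0.98 without J11), and 0 were lower. The next genes were named after their values were seen. Separated with 22M below (21.1% of all genes) were Grasp (-0.35, limma adjusted p = 0.0673), Dlgap3 (-0.36, limma adjusted p = 0.0955), Dlg4 (-0.13) and Pick1 (-0.24). Dlgap1 (0.42) and Frmpd4 (0.52) were separated with 22M above (13.3% of all genes), as the genes called higher were.

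The activity-induced genes, to which Homer1a belongs by its biology, had 3 of 14 that fell, with a median of -0.25. Junb was at 28.6, 29.2 and 27.6 FPKM in 22M, against 45.7, 58.4 and 49.9 FPKM in 3M (log2 fold change -0.83, SE 0.106, limma adjusted p = 0.0364). Egr4 (-1.14, adjusted p = 0.0407) and Egr2 (-0.88, adjusted p = 0.0479), both zinc finger transcription factors, fell as well. The other 11 did not pass. Of these 7 were below 0, among them Arc (-0.26), Fos (-0.37) and Npas4 (-0.37), and 4 above 0, namely Btg2 (0.42), Ier2 (0.25), Bdnf (0.093) and Egr3 (0.084).

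In the group I signalling list 0 of 19 passed the adjusted p. At the thresholds of the study 3 were higher and 3 lower, with a median of 0.18. Trpc5, a cation channel (0.88, adjusted p = 0.0623), and Prkcb, a protein kinase C (0.76, adjusted p = 0.0735), were higher. Prkcb was at -0.29 when its most abundant transcript stood in for the sum. Rgs4, a regulator that shortens G protein signals, was lower (-0.80, adjusted p = 0.0954), at 49.5, 47.7 and 58.7 FPKM in 22M, against 131, 81.8 and 69.1 FPKM in 3M. Without J11, its highest library, it was -0.53, under the fold threshold. Also past these thresholds, and named after their values were seen, were Itpr1 (0.59, and 0.39 to 0.78 on leaving out a library) and Plcb4 (-1.05, and -1.49 to -0.76), each of them past the thresholds in 2 of the 6 such fits. With the correction for length and GC Itpr1 was at 0.30. Without J11 the log2 fold changes were 0.76 for Trpc5 and 0.84 for Prkcb. Of 16 effectors of groups II and III, 0 passed the adjusted p, with a median of 0.20. Higher were Kcnj6, a GIRK channel (1.06, adjusted p = 0.0623), Adcy9 (0.72, adjusted p = 0.0586) and, named after its value was seen, Adcy1 (0.82, adjusted p = 0.0631), both adenylyl cyclases. These were 0.95, 0.70 and 0.65 without J11. With the correction for length and GC Adcy1 was at 0.39, past no threshold. Gnb2, a G protein beta subunit, was lower (-0.62, adjusted p = 0.163), at 52.9, 53.4 and 47.9 FPKM in 22M, against 103.9, 90.8 and 52.6 FPKM in 3M. Its ages overlapped at J15, and of the 6 fits that left out a library it was past the thresholds in 1, that without J15 (-0.91). It was -0.43 without J11 and -0.30 with the correction, neither of them past the thresholds. With its most abundant transcript in place of the sum, Gnb2 was at -6.39 (limma adjusted p = 0.0341), so its forms differed widely from the sum.

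None of the 5 adjusted calls in these lists held without 72, 76, 78, J11 or J13. Without J15, Shank2, Junb and Egr4 still passed (limma adjusted p = 0.0394, 0.0420 and 0.0214). Elfn2 and Egr2 did not pass without J15 either (limma adjusted p = 0.0507 and 0.0575). Without 72, 76, 78, J11 or J13 in turn, 0 genes of the lists rose and 0 fell, and without J15 there were 6 that rose and 3 that fell. In the same order, 6, 0, 16, 17 and 4 of all 13041 genes rose, and 5, 2, 8, 13 and 3 fell. Without J15 these were 181 and 365, against 120 and 158 with all libraries, so calls over all genes moved likewise. Without J11 the log2 fold changes were 1.27 for Shank2, 0.76 for Elfn2, -0.91 for Junb, -0.79 for Egr2 and -1.06 for Egr4. With the correction for length and GC Junb was at -0.53, under the fold threshold of the study. Across all genes, 49.2% of those past the thresholds of the study were higher, against 59.7% with median-of-ratios scaling, 58.3% with quantile normalization and 61.3% with the correction for length and GC.

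**Figure D5:**
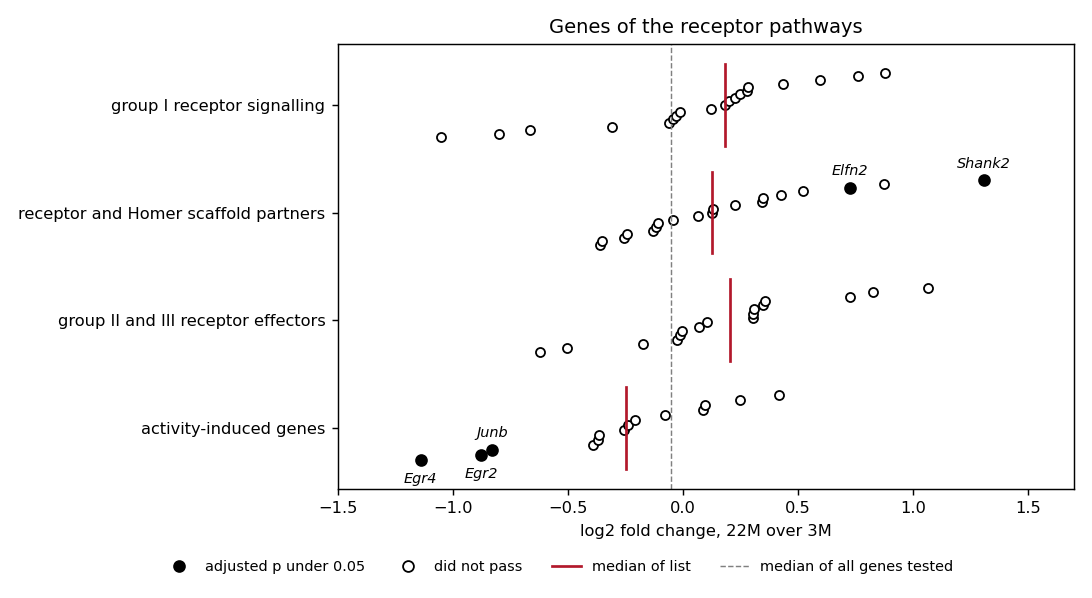
Log2 fold change, 22M over 3M, of every gene in 4 lists of partner genes (points), filled where the limma adjusted p was under 0.05. Shank2 and Elfn2 rose, Junb, Egr2 and Egr4 fell, and the red bars are the list medians (0.18, 0.13, 0.20 and -0.25 from top to bottom).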

How the data were processed

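Hippocampal mRNA-seq of 22M and 3M male mice gave 6 libraries, 3 per age. The authors deposited FPKM values for every transcript in every library. The submitters' processing notes give HISAT2 as a tool and GRCm38 (mm10) as the build, and neither the quantifier nor its strand setting nor the annotation release is given in the sources used here. Antisense genes overlap Grm2, Grm7 and Homer2, and reads of each pair may not have been told apart. Without counts the depth cannot be known, and errors rest on how libraries of an age differ. In limma the variance of each feature was also drawn toward a trend over all features tested. For Grm2 the SE was 0.196 in this way and 0.231 with its own variance.

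Transcript FPKM were added up by gene name. Features averaging 0.5 FPKM or more (13041 genes, 23637 transcripts) entered limma 3.58.1 in R 4.3.3 (variance trend, two-sided, log2(FPKM + 0.5), Benjamini-Hochberg adjustment over all tested), and fold changes on this scale understate those of low genes. The thresholds of the study were applied beside the adjusted p. All 8 genes and 20 transcripts passed the filter. Lengths, codons and coordinates came from GENCODE vM21 on GRCm38 (99.7% of transcript identifiers matched) and promoters from RefSeq. On simulated data with planted log2 changes of 1 and 2, 66% and 91% of genes and 12% and 40% of transcripts were called, with 9 and 5 false calls.

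Named were all members, of each list the genes past the adjusted p and otherwise the 2 of smallest p in each direction past the thresholds of the study, and the 2 genes most correlated with each member. Some genes that this rule gives are not reported here. The members and lists were chosen with earlier results of these data known. Alternatives were other pseudocounts, filters, scalings and variance models, a correction for length and GC (natural splines with 4 degrees of freedom each), the most abundant transcript and leaving out each library. Chosen after seeing the data were the ratio of Grm5 forms with its alternatives, those of the Homer1 form sums and of the correlations, and the counts without J11 and without 78.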

Additional observations from a re-analysis of the deposited data

How the results depend on the processing

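No alternative gave a member gene or transcript past the adjusted p, where the lowest adjusted p was 0.0552, for Grm5. The count of member genes higher at the thresholds of the study was 0 with a pseudocount of 1, 0 with each gene's own variance, 0 with the correction for length and GC, 2 with quantile normalization and 0 to 2 on leaving out a library, when 0 to 1 were lower. In the same order, 435, 396, 419 (of 13027) and 613 of all 13041 genes were higher. On leaving out a library 448 to 654 of all genes were higher and 455 to 790 lower, so the background moved with the setting too. Of the member transcripts, 1 was higher with own variances (3.77% of all transcripts). With the correction 2 were higher and 1 was lower, and the shares of all transcripts were not taken there. On leaving out a library 1 to 4 were higher and 0 to 2 lower. Shares of all transcripts on leaving out a library were taken only for J11 (5.33% higher and 4.03% lower). In the partner lists 0 rose and 0 fell in limma without trend, with own variances and with the correction. In the same order, 23, 0 and 29 of all genes rose, and 14, 0 and 16 fell. With own variances no gene of the whole series passed, so the 0 of member and list genes says nothing about them there. In the lists 4 genes were lower with own variances, beside 401 of all genes. Leaving out a library gave 0 to 6 that rose, 0 to 3 that fell, 8 to 10 that were higher and 4 to 7 that were lower. Over all genes 0 to 181 then rose and 2 to 365 fell. The lists were not counted with the most abundant transcript. There Shank2, Elfn2, Junb, Egr2 and Egr4 did not pass the adjusted p, and Gnb2 did (limma adjusted p = 0.0341). Of all 13018 genes tested in that setting 18 rose and 14 fell. The cause of these shifts was not tested.

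Signs turned in these values. The group III sum (log2 ratio of the means 0.02) ran between -0.093 and 0.20 and the Homer sum (0.09) between -0.11 and 0.26 on leaving out a library, Grm3 between -0.10 and 0.22, Homer1 between -0.35 and 0.20, and the Homer1 long forms between -0.24 and 0.79. With the most abundant transcript in place of the sum, Homer1 was at 0.58 and Prkcb (0.76 as a sum) at -0.29. With the correction, Grm3-201 was at -0.019 and Grm5-202 at -0.29. Leaving out a library moved Grm3-201 between -0.10 and 0.22, Grm5-202 between -0.10 and 0.12, Homer1-202 (-0.99) between -1.58 and 0.16, Homer1-206 between -1.13 and 1.06 and Homer1-207 between -0.15 and 0.83. No paired analysis was possible because the library names give the 2 ages no shared replicate numbers.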
